A study of Mus musculus with 2 samples.

Results

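Genes of fatty acid uptake by the blood vessel wall were followed through the cells of aged mouse muscle: Lpl, Gpihbp1, Cd36, Fabp4, Fabp5, Rbp7, Aqp7, Pparg, Meox2 and Tcf15. These 10 genes were taken by gene symbol from the 32285 genes of the count matrices. The data are droplet-based single-cell RNA-Seq (3′ reads, with a molecular tag, or UMI, for each captured transcript) of hindlimb muscle of female C57Bl/6J mice, 24 months of age, in 2 libraries. In the ATRA+agonist library, the muscle had been injected 3 times within a week with all-trans retinoic acid (ATRA, the active metabolite of vitamin A), the RXRα agonist CD3254 and the RARγ agonist BMS961. In the DMSO vehicle library, it had received the solvent alone. Cells of 2 mice were pooled per library, so each group is 1 library without replicates and no test could be run. Effects of the treatment, of the mice and of handling cannot be told apart.

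Muscle burns fatty acids that arrive in the blood as triglyceride in lipoproteins. Lipoprotein lipase (Lpl) splits the triglyceride at the capillary surface, where GPIHBP1, an anchor protein of capillary endothelium, holds it. CD36 takes up the released fatty acids, and the binding proteins FABP4 and FABP5 carry them through the endothelial cell, while the water and glycerol channel AQP7 passes glycerol. The nuclear receptor PPARγ (Pparg), which binds DNA with RXR, switches on many of these genes, and the transcription factors MEOX2 and TCF15 act as a pair in the endothelium of heart and skeletal muscle. Rbp7 encodes a cellular retinol-binding protein of endothelium.

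The receptors of the injected compounds, RAR and RXR, recognize DNA built from the half-site AGGTCA, and so does PPARγ with RXR. The RefSeq promoter table matched 5 of the 10 genes (Cd36, Pparg, Rbp7, Aqp7 and Meox2) with 8 start sites. The 250 bases before a start are shown for Cd36, for 1 of the 2 starts of Aqp7 and for Rbp7, which are a gene whose level barely differed, a gene with 2 matches and a gene whose level was lower in the treated library. Half-sites on either strand are in capitals (TGACCT is AGGTCA read on the other strand).
Cd36, GRCm38.p6 chr5:17835897-17836146, minus strand: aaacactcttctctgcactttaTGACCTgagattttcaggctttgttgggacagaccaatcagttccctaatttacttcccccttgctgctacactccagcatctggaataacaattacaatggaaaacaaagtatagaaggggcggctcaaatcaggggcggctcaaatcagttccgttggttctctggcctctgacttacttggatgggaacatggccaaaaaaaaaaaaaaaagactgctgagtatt
Aqp7, GRCm38.p6 chr4:41047963-41048212, minus strand: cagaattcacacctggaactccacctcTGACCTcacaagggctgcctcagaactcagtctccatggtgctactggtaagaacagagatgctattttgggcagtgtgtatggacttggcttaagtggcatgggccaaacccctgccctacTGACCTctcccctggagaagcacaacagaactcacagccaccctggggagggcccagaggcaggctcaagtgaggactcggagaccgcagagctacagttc
Rbp7, GRCm38.p6 chr4:149454969-149455218, minus strand: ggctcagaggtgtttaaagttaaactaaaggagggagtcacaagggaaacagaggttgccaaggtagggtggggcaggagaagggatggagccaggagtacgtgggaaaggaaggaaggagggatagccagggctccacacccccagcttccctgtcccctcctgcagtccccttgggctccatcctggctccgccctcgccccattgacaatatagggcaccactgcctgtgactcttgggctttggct
Of the 8 upstream windows, 5 held the half-site, and these come from 3 genes (Cd36, Aqp7 and Pparg). The 2 Aqp7 windows overlap and share 1 half-site, so the 8 windows are not independent. Of all 32851 promoter windows 14.0% held it, given here as a description from which nothing is read about the 5 genes. The window of Meox2 and that of Rbp7 held none, 2 of the 3 starts of Pparg held 1 each, and the pair of half-sites spaced by 1 base was in none of the 8. That pair occurred in only 13 of all 32851 promoters and other spacings were not searched, so nothing is read from its absence. A match is a run of letters and not a measured binding site.

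The files listed 10444 barcodes (65197625 UMIs) for ATRA+agonist and 17394 barcodes (109343486 UMIs) for vehicle, of which 6907 and 6953 cells passed the filters. Only 9 barcodes of kept cells occurred in both libraries. Endothelial-like cells, named from 10 markers that include none of the 10 genes, numbered 2548 (median 2755.5 UMIs) and 2496 (median 3184 UMIs), and none of those 10 markers was at 0 in either library. A second clustering separated capillary-like (1631 and 1693 cells), arterial-like (140 and 152), venous-like (35 and 88) and lymphatic-like cells (14 and 12). The other endothelial-like clusters stayed unnamed, the biggest of them (502 and 307 cells) for its low median of 828 UMIs. The capillary-like cells were made up differently: endothelial cluster 0 held 796 of them with ATRA+agonist, whereas cluster 2, led by interferon-response genes, held 749 with vehicle and 32 with ATRA+agonist. Levels are given as CPM, that is UMIs of a gene per 1000000 UMIs of the cells summed. Ratios are log2 of ATRA+agonist over vehicle, in cells with at least 100 cells per library and genes with at least 100 UMIs. All 95% intervals cover counting error only.

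First, where the genes were transcribed was compared across the cell classes with at least 50 cells. In endothelial-like cells, 5 genes (Cd36, Gpihbp1, Fabp4, Rbp7 and Aqp7) were at least 2-fold above every other named class in both libraries, a criterion met by 2.81% of 15293 genes. Gpihbp1 stood at 1423 CPM with ATRA+agonist and 1412 CPM with vehicle, 24.6-fold and 64.1-fold above the next class (myonuclei-like and smooth muscle or pericyte-like cells). These are unlike classes, since myonuclei-like cells numbered 220 with ATRA+agonist and 0 with vehicle. Aqp7 (226 and 211 CPM) was 29.4-fold (14.2 to 73.2) and 55.7-fold (23.8 to 172) above smooth muscle or pericyte-like cells, where it rested on 7 and 5 UMIs. Fabp4 (15757 and 16186 CPM) was 15.8-fold and 13.8-fold above them. Rbp7 (172 and 256 CPM) did not exceed 19.8 CPM in any other named class, and Cd36 (2380.0 and 2494 CPM) was 2.59-fold and 3.16-fold above smooth muscle or pericyte-like cells.

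**Figure D1:**
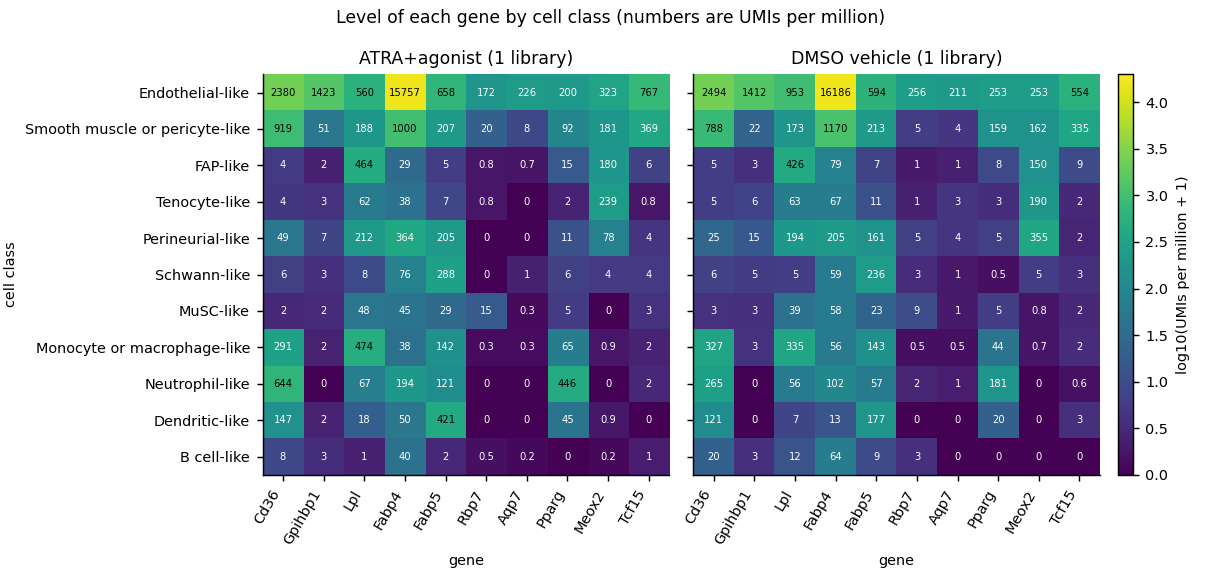
Level of each of the 10 genes (columns) in 11 cell classes (rows), 1 panel per library; colour is log10(CPM + 1) and the number in each cell is CPM. The endothelial-like row holds the highest value of 8 of the 10 genes in both libraries; Pparg with ATRA+agonist (446 CPM in neutrophil-like cells) and Meox2 with vehicle (355 CPM in perineurial-like cells) are higher elsewhere.

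Lpl, Fabp5, Pparg, Meox2 and Tcf15 did not meet that criterion. Lpl, besides endothelial-like cells, was transcribed by monocyte or macrophage-like cells (474 and 335 CPM) and by FAP-like cells (464 and 426 CPM), the fibro-adipogenic progenitors of muscle. With vehicle, endothelial-like cells had 2.24-fold the Lpl level of the next class. With ATRA+agonist they had 1.18-fold, and the levels of macrophage-like cells (95% interval 456 to 492 CPM) and FAP-like cells (452 to 476 CPM) overlapped. Cd36 reached 919 and 788 CPM in smooth muscle or pericyte-like cells and 291 and 327 CPM in macrophage-like cells, where it acts as a scavenger receptor.

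Both transcription factors had a second home. Tcf15 stood at 369 and 335 CPM in smooth muscle or pericyte-like cells and did not exceed 13.8 CPM in any other non-endothelial class. Meox2 was spread over the connective tissue classes, at 180 and 150 CPM in FAP-like, 239 and 190 CPM in tenocyte-like and 181 and 162 CPM in smooth muscle or pericyte-like cells. Perineurial-like cells had 77.7 and 355 CPM, with vehicle more than the 253 CPM of endothelial-like cells. Pparg was highest in neutrophil-like cells with ATRA+agonist (446 CPM, 63 cells) and second there with vehicle (181 CPM, 159 cells). The leading genes of that class included Ly6c2, also a monocyte gene, beside S100a8 and S100a9. Which of its cells carried Pparg was not tested. Outside the endothelium, Fabp5 stood at 421 and 177 CPM in dendritic-like cells (114 and 71 cells), at 288 and 236 CPM in Schwann-like cells and at 207 and 213 CPM in smooth muscle or pericyte-like cells. Its reads are less certain since a near-identical pseudogene exists.

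The level in a class that should lack these genes gives the background. In B cell-like cells (median 5371 and 4173 UMIs), Fabp4 still stood at 39.7 CPM (640 cells) and 63.9 CPM (62 cells), and the other 9 genes at no more than 7.71 and 20.3 CPM. Fabp4 in FAP-like (29.4 and 79.2 CPM), MuSC-like (44.7 and 58.1 CPM) and macrophage-like cells (38.2 and 56.0 CPM) was of that size and is read as background. In barcodes with under 300 genes, mostly hemoglobin, Fabp4 made 1552.5 and 1542 CPM of the UMIs left after hemoglobin genes were set aside.

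Within the endothelium, the lipase machinery marked capillaries. Lpl in capillary-like cells (638 and 1186 CPM) was 6.28-fold above arterial-like cells (102 and 123 CPM) with ATRA+agonist and 9.61-fold with vehicle. The levels in venous-like cells were 90.4 CPM (13 UMIs) and 138 CPM (64 UMIs), and their intervals overlapped those of arterial-like cells. Gpihbp1 was 4.14-fold and 6.19-fold higher in capillary-like than in arterial-like cells, and Tcf15 2.57-fold and 3.08-fold. Pparg did not separate capillary-like from arterial-like cells, with log2 differences of 0.14 (95% interval -0.12 to 0.41) and 0.20 (-0.02 to 0.42).

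Rbp7 ran the other way. It stood at 431 and 524 CPM in arterial-like cells and at 122 and 205 CPM in capillary-like cells, a log2 difference of capillary over arterial of -1.83 (-2.03 to -1.62) with ATRA+agonist and -1.35 (-1.51 to -1.19) with vehicle. This order holds among the named vessel types only. The biggest unnamed cluster (502 and 307 cells) had 6 of 9 capillary markers and stayed unnamed for its low UMIs. Rbp7 stood there at 447 and 814 CPM. Rbp7 was also carried by few cells: the tenth of endothelial-like cells with most Rbp7 held 79.9% and 77.9% of its UMIs, against 39.9% and 35.0% for Lpl and 28.7% and 29.8% for Fabp4. Of capillary-like, arterial-like and venous-like cells, the arterial-like ones had the lowest Fabp4 and Fabp5, at 8964 and 8013 CPM for Fabp4 and 266 and 163 CPM for Fabp5, against 15388 and 15210 CPM and 821 and 775 CPM in venous-like cells. Pparg in venous-like cells rested on 2 UMIs (13.9 CPM) and 34 UMIs (73.4 CPM). In lymphatic-like cells, a vessel type of 14 and 12 cells, Cd36 was at 2 and 0 UMIs and Aqp7 at 0 in both, which allows up to 44.98 and 49.3 CPM.

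**Figure D2:**
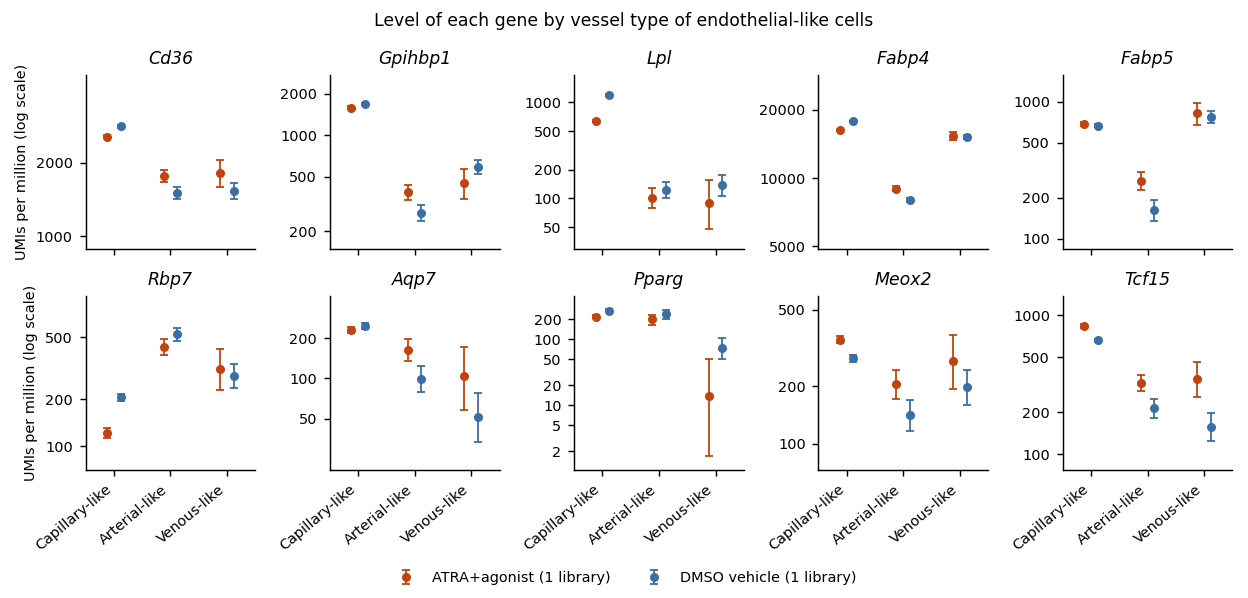
CPM (log scale, a separate range per panel) of each gene in capillary-like, arterial-like and venous-like cells; points are the 2 libraries and bars are exact Poisson 95% intervals. Lpl and Gpihbp1 are highest in capillary-like cells, whereas the points of Rbp7 are highest in arterial-like cells (431 and 524 CPM), with an interval that overlaps that of venous-like cells with ATRA+agonist.

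Next, the libraries were compared within endothelial-like cells. Lpl was the only gene of the 10 past 1.5-fold (0.585 on the log2 scale), and it was lower with ATRA+agonist: 560 CPM (4078 UMIs) against 953 CPM (8052 UMIs), log2 -0.77 (-0.82 to -0.71). Thus 1 of 10 genes was lower and 0 of 10 higher, where 3.66% of 9706 genes were lower and 3.83% higher. The median log2 ratio was -0.01 over the 10 genes and 0.07 over all genes. Rbp7 lay just inside the limit, at 172 CPM against 256 CPM, log2 -0.57 (-0.67 to -0.47), and it passed the limit in 12 of 18 alternative settings. Lpl passed it in all 18, of which a fold of 2 and a minimum of 10 UMIs leave the ratio unchanged.

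The remaining genes differed less. Pparg was 200.4 CPM against 253 CPM, log2 -0.34 (-0.44 to -0.24). The pair of transcription factors lay on the other side of 0, with Meox2 at 323 CPM against 253 CPM (log2 0.35, 0.26 to 0.43) and Tcf15 at 767 CPM against 554 CPM (log2 0.47, 0.41 to 0.53). The anchor and the uptake proteins were near even: Gpihbp1 had a log2 ratio of 0.01 (-0.03 to 0.05), Cd36 of -0.07 (-0.10 to -0.04) and Fabp4 of -0.04 (-0.05 to -0.03). Fabp5 had 0.15 (0.09 to 0.21), and the interval of Aqp7 included 0 (0.10, -0.00 to 0.19).

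The share of cells with an Lpl UMI gave the same order at equal depth. After each cell was thinned to 1000 UMIs, which left out 523 and 260 shallower cells, 38.9% (36.7 to 41.0) of 2025 endothelial-like cells held an Lpl UMI with ATRA+agonist and 52.0% (49.9 to 54.1) of 2236 with vehicle. Before thinning the shares were 59.7% and 72.8%. In thinned B cell-like cells the Lpl share was 0.157% of 638 and 3.23% of 62. For Rbp7 the thinned shares were 11.0% (9.68 to 12.5) and 13.4% (12.0 to 14.9), for Tcf15 48.7% (46.5 to 50.9) and 39.98% (37.9 to 42.0) and for Fabp4 98.0% (97.3 to 98.5) and 96.0% (95.1 to 96.8). The unthinned shares were 19.7% and 24.96% for Rbp7, 70.1% and 66.7% for Tcf15 and 98.7% and 97.4% for Fabp4. In thinned B cell-like cells Fabp4 was in 2.98% and 1.61% of cells, and Rbp7 in 0 of 638 and 0 of 62, with 95% upper bounds of 0.577% and 5.78%. The intervals of the Rbp7 shares overlapped, and those of Lpl, Tcf15 and Fabp4 did not. They count cells of 1 library each, which are not replicates, so overlap or its lack says nothing about the groups. For Fabp4 the share was higher with ATRA+agonist, whereas its CPM ratio lay slightly below 0 (log2 -0.04). The median thinned endothelial-like cell held UMIs of 5 of the 10 genes in each library.

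**Figure D3:**
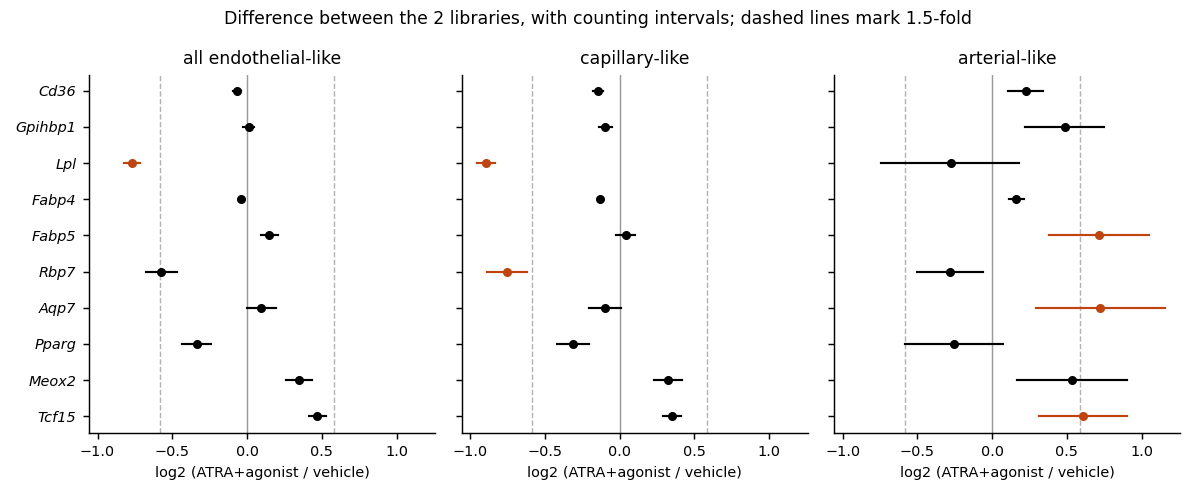
Log2 ratio of ATRA+agonist over DMSO vehicle (x axis) for each gene (y axis) in all endothelial-like, capillary-like and arterial-like cells; bars are exact 95% counting intervals, dashed lines mark 1.5-fold and red marks values past it. Lpl (-0.77 and -0.89) and Rbp7 (-0.75 in capillary-like cells) lie lowest in the first 2 panels, and 3 genes lie past 1.5-fold higher in the arterial-like panel.

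In capillary-like cells, 2 of 10 genes were lower past 1.5-fold and 0 higher, where 2.76% of 8920 genes were lower and 4.36% higher; the median log2 ratio was -0.11 over the 10 genes and 0.08 over all genes. Lpl was 638 CPM against 1186 CPM, log2 -0.89 (-0.95 to -0.84), and Rbp7 122 CPM against 205 CPM, log2 -0.75 (-0.89 to -0.62). The tenth of capillary-like cells with most Rbp7 held 79.4% and 75.4% of its UMIs. In the first clustering, an endothelial cluster of 298 and 315 cells was led by the arterial markers Sema3g and Stmn2. Rbp7 was among its leading genes, and only 140 and 152 cells were named arterial-like. How many of its cells count as capillary-like, and their part in the Rbp7 ratio, was not tested. On the mean of log values, an alternative setting, the Rbp7 ratio was -0.20. In arterial-like cells 3 of 10 were higher and 0 lower, where 4.67% of 2827 genes were higher and 5.87% lower, with medians of 0.35 over the 10 genes and -0.00060 over all genes. These were Aqp7 (163 against 99.0 CPM, log2 0.72, 0.29 to 1.15), Fabp5 (266 against 163 CPM, log2 0.71, 0.38 to 1.05) and Tcf15 (326 against 214 CPM, log2 0.61, 0.32 to 0.90). They rest on 109 and 81, 178 and 133, and 218 and 175 UMIs, and they passed 1.5-fold in 7, 5 and 4 of the 15 alternative settings that gave a value. Among those settings, a fold of 2 and a minimum of 10 UMIs leave these ratios unchanged, and leaving out cluster 2 does not touch arterial-like cells. Leaving out cells under 1000 UMIs removed only 2 and 0 arterial-like cells. A pass in any of these settings adds little or nothing. Lpl in arterial-like cells was 102 against 123 CPM, log2 -0.28 (-0.74 to 0.18), an interval that includes 0.

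Interferon-response genes also differed between the libraries. Of a list of 57 such genes, 41 were lower past 1.5-fold in endothelial-like cells and 0 higher, and the list summed to 19792 CPM with ATRA+agonist and 33960 CPM with vehicle. The part of this difference in the ratios of the 10 genes was not tested. In cluster 3 the interferon list summed to 25216 against 22933 CPM. There Lpl was 565 against 799 CPM (log2 -0.50, -0.65 to -0.35) and Rbp7 135 against 264 CPM (log2 -0.97, -1.24 to -0.69). In cluster 0 (list 15449 against 18267 CPM) Lpl was 658.7 against 1257.5 CPM (log2 -0.93) and Rbp7 89.4 against 220 CPM (log2 -1.30). In cluster 4 (22371 against 36131 CPM) Lpl was 781 against 1466 CPM (log2 -0.91) and Rbp7 193 against 390 CPM (log2 -1.02).

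Leaving out cluster 2, an alternative chosen after the data had been seen, moved the genes in different directions. Lpl in capillary-like cells was then -0.92 (-0.99 to -0.86), close to its value with the cluster. Rbp7, which among the capillary-like clusters with vehicle had its lowest level in cluster 2 (112 CPM), went to -1.22 (-1.37 to -1.08), and Tcf15 from 0.35 to 0.13 (0.06 to 0.20). Cd36, Gpihbp1 and Fabp4 went to -0.25, -0.36 and -0.35, from -0.14, -0.10 and -0.13. In all endothelial-like cells without cluster 2, Lpl was -0.59 (-0.65 to -0.53) and Rbp7 -0.93 (-1.04 to -0.83). Within single clusters, Tcf15 had log2 ratios of 0.10 (-0.00 to 0.21) in cluster 0, 0.20 (0.03 to 0.36) in cluster 3 and 0.47 (0.34 to 0.59) in cluster 4. Meox2 in capillary-like cells was 0.43 (0.31 to 0.54) without cluster 2.

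**Figure D4:**
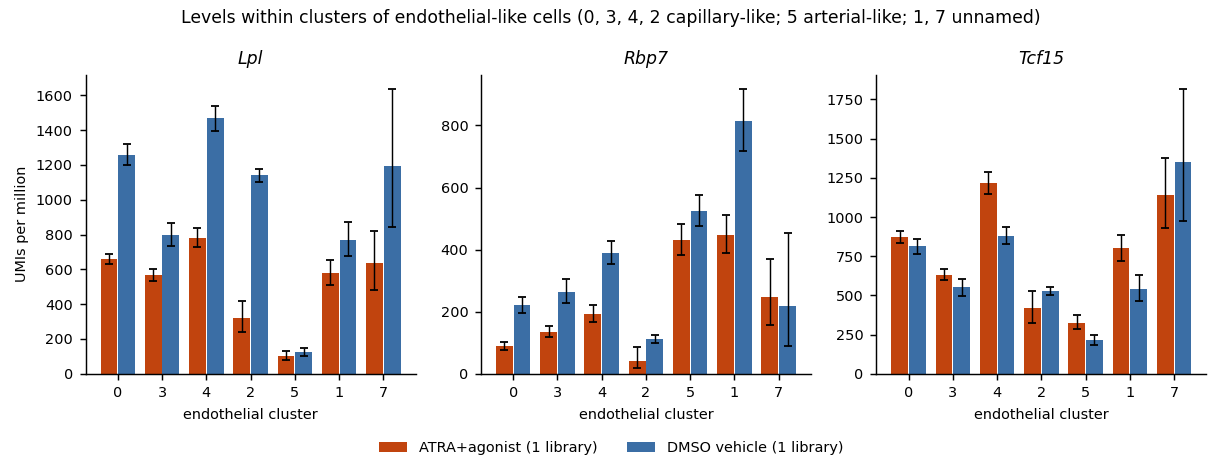
CPM of Lpl, Rbp7 and Tcf15 in 7 clusters of endothelial-like cells (x axis) for the 2 libraries (bars), with exact Poisson 95% intervals. Lpl is lower with ATRA+agonist in each of the 4 capillary-like clusters (0, 3, 4 and 2), as is Rbp7, whereas the intervals of Tcf15 overlap between libraries in clusters 0, 3 and 2; cluster 2 holds 32 cells with ATRA+agonist.

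Markers of other cells were summed in the endothelial-like cells. The 7 adipocyte markers summed to 7 UMIs with ATRA+agonist and 26 UMIs with vehicle, 4 and 2 of them were at 0, and Adipoq was at 0 and 4 UMIs. Erythroid markers (6 genes) summed to 560 against 1444 CPM, with 4 of 4 tested genes lower past 1.5-fold, and myonuclei markers (9 genes) to 167 against 62.0 CPM, with 5 of 5 higher. Smooth muscle or pericyte markers (9 genes) summed to 426 against 407 CPM, with 2 of 4 lower past 1.5-fold and a median log2 ratio of -0.52. FAP markers summed to 59.3 against 66.6 CPM and macrophage markers to 28.3 against 25.3 CPM. Their part in the ratios was not tested. In these summed cells, fewer cells with a transcript and less of it per cell cannot be told apart by CPM alone.

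In other cell classes the direction of Lpl differed. It was higher with ATRA+agonist in macrophage-like cells, log2 0.50 (0.41 to 0.60), and slightly higher in FAP-like cells, log2 0.12 (0.07 to 0.18). Summed over all kept cells, Lpl was 328 against 393 CPM, log2 -0.26 (-0.29 to -0.23). Pparg was higher in FAP-like cells, 15.03 against 7.82 CPM (198 and 103 UMIs, log2 0.94, 0.59 to 1.30), and 0.56 (0.29 to 0.82) in macrophage-like cells. It was lower in smooth muscle or pericyte-like cells, 92.3 against 159 CPM (log2 -0.79, -1.17 to -0.42). The 7 adipocyte markers in FAP-like cells summed to 30 and 17 UMIs, and their part in the Pparg value was not tested. The level of Pparg in FAP-like cells is low, and in B cell-like cells it was at 0 UMIs in both libraries.

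**Figure D5:**
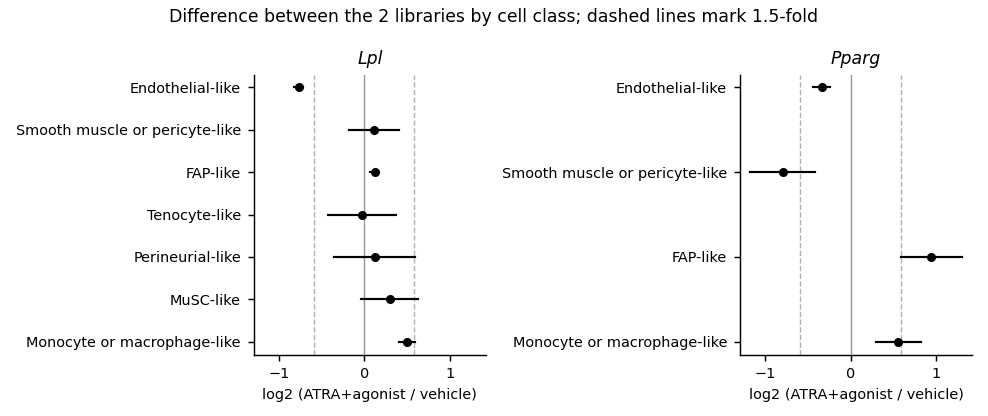
Log2 ratio of ATRA+agonist over DMSO vehicle (x axis) for Lpl and Pparg in each cell class with at least 100 cells per library and 100 UMIs of the gene; bars are exact 95% counting intervals and dashed lines mark 1.5-fold. Lpl lies below 0 with its whole interval only in endothelial-like cells, and Pparg lies at 0.94 in FAP-like and at -0.79 in smooth muscle or pericyte-like cells.

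Past 1.5-fold, FAP-like cells had 1 of 7 genes higher (Pparg; 2.05% of 11507 genes) and 1 lower (Fabp4; 4.28%), the latter at the background level given above. Smooth muscle or pericyte-like cells had 0 of 7 higher (4.44% of 4186 genes) and 1 lower (Pparg; 7.21%). Macrophage-like cells had 0 of 5 in either direction (1.96% of 7594 genes higher and 2.25% lower). Tenocyte-like cells had 1 of 3 lower (Fabp4, 38.4 against 66.6 CPM, log2 -0.79, -1.28 to -0.33, also at the background level; 6.76% of 6037 genes) and 0 higher (3.84%). MuSC-like cells had 0 of 3 in either direction (3.89% of 7247 genes higher and 3.1% lower), as did Schwann-like cells with 0 of 2 (4.68% of 4995 genes higher and 6.93% lower). Perineurial-like cells had 1 of 4 higher (Fabp4) and 1 lower (Meox2), but 23.4% of 1306 genes were higher there and 38.4% lower, and macrophage markers summed to 8313 against 1618 CPM, so that nothing is read from that class.

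Other genes of lipid uptake were looked up from a list of 72. In endothelial-like cells 50 of them had at least 100 UMIs, of which 3 were higher past 1.5-fold, 4 lower and 43 neither, with a median log2 ratio of 0.01. Of all 9706 genes 3.83% were higher and 3.66% lower, with a median of 0.07. The 3 higher were apelin (Apln, 18.5 against 6.75 CPM, log2 1.46, 1.001 to 1.93), its receptor Aplnr (75.6 against 32.4 CPM, log2 1.22, 1.01 to 1.44) and Lmf1 (9.88 against 5.80 CPM, log2 0.77, 0.23 to 1.32), a factor that the lipase needs to mature. The 4 lower were Dgat2 (5.63 against 12.9 CPM, log2 -1.20), which makes triglyceride, Angptl4 (7.41 against 11.8 CPM, log2 -0.67), an inhibitor of the lipase, Acsl3 (10.3 against 16.1 CPM, log2 -0.64), which activates fatty acids, and the triglyceride lipase Pnpla2 (73.0 against 112 CPM, log2 -0.62). By role, 2 of the 6 genes of the VEGF-B and apelin axis were higher, 2 of 10 lipid droplet and lipolysis genes were lower, and none of the 8 nuclear receptors and coactivators or of the 5 fatty acid transport and caveolae genes was past 1.5-fold.

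Across 23 points (cell classes with at least 50 cells, each library a point), the genes with the pattern most like that of each of the 10 were ranked by Pearson correlation of log2(CPM + 1). The points share 2 libraries and differ in depth, so the values are descriptive. Closest to Aqp7 were Sox18, Bcl6b and Grrp1 (r = 0.97, 0.97 and 0.96), to Gpihbp1 Egfl7, Podxl and Tead4 (0.96, 0.95 and 0.95), and to Fabp4 Esam, Adgrf5 and Podxl (0.94 for each). Egfl7 and Esam are among the 10 markers that named endothelial-like cells, so their high level in that class is built in. Rbp7 was closest to 9330175M20Rik, Hey1 and Depp1 (0.91, 0.90 and 0.90), and Tcf15 to Dysf, Kcna5 and Vsig2 (0.95, 0.95 and 0.93). Meox2 was closest to Runx1t1, Zfp423 and Igfbp7 (0.94, 0.93 and 0.93) and Pparg to Ralb, Gm44079 and Tbkbp1 (0.92, 0.87 and 0.85), of which Gm44079 overlaps Pparg on the other strand. Cd36 was closest to Gm12185, Fam110a and Rasa4 (0.86, 0.85 and 0.85), Fabp5 to Gcnt2, Bnip2 and Ctnnbip1 (0.83, 0.80 and 0.78) and Lpl to Slco2b1, Adam15 and Xdh (0.79, 0.77 and 0.77). Among the 10 genes, Gpihbp1 and Aqp7 were closest to each other (0.93), and Lpl had the weakest best match (Meox2, 0.59).

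In GENCODE M21 (GRCm38), Lpl (ENSMUSG00000015568) lies at chr8:68880491-68907448 on the plus strand and Rbp7 (ENSMUSG00000028996) at chr4:149449687-149454978 on the minus strand. Fabp4 (ENSMUSG00000062515, chr3:10204088-10208576, minus strand) and Fabp5 (ENSMUSG00000027533, chr3:10012548-10016607, plus strand) lie on the same chromosome. Meox2 (chr12:37108540-37179534, plus strand) overlaps the annotated gene Gm48617 on the same strand, so that reads in the overlap are uncertain.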

How the data were processed

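The deposited matrices held raw UMI counts, one value for each gene in each barcode, produced by the authors with Cell Ranger 7.2.0 on the mm10 genome; a UMI counts PCR copies of a molecule once. The annotation release is not given in the sources used here. Cells with 300 to 5000 genes, under 20% mitochondrial and under 0.25% Hbb UMIs were kept, as in the study, and the 7.5% with the highest doublet score in each library were removed (nearest-neighbor score against simulated doublets, rebuilt after DoubletFinder). Each cell was scaled to 10000 UMIs before taking logs; 2000 variable genes, 30 components, 20 neighbors and Louvain clustering at resolution 0.8 followed (igraph 0.11.9, scikit-learn 1.9.0). The 10 genes, the 72 other lipid genes, the interferon-response list and mitochondrial, ribosomal and hemoglobin genes were left out of clustering. A cluster was named "-like" where at least 3 markers of a class, and no fewer than the rest of its list, were 2-fold above the other cells, unless markers of another class led it. Capillary-like clusters were sought last, among endothelial-like clusters without a name. Their markers were set against the pooled arterial-like, venous-like and lymphatic-like cells only. A cluster with median UMIs more than 3-fold below its main library stayed unnamed if capillary-like, and otherwise if no marker led it.

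The 10 genes and all lists were chosen with earlier results of these data known, and the naming thresholds were set after clusters had been seen, so classes are rebuilt names. Named genes were all 10, the 5 largest rises and falls past 1.5-fold among the 72, and the 3 most alike genes for each of the 10. Counts were summed per class and compared as CPM, with exact Poisson, binomial (Clopper-Pearson) and conditional 95% intervals (scipy 1.17.1). A count of 0 was taken to allow 3 counts. The ratio and its interval were tested on simulated data. Kept cells had medians of 4707 and 4847 UMIs. With 1 library per group no p-value was computed. Alternatives changed the doublet share, each filter, the resolution, the clustering genes, the naming, thinning, the scale, the UMI minimum and the fold. Positions come from GENCODE M21.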

Additional observations from a re-analysis of the deposited data

Results flagged for a closer look

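In 5 cases the log2 ratio of a gene had opposite signs in endothelial-like cells and in another class, with both intervals clear of 0 and at least 1 of the 2 ratios past 1.5-fold. The difference between classes was not tested, since each group is 1 library. Lpl had a log2 ratio of 0.50 in macrophage-like and 0.12 in FAP-like cells against -0.77 in endothelial-like cells. Pparg had 0.94 in FAP-like cells against -0.34. Meox2 had -2.19 in perineurial-like cells against 0.35, and Fabp4 had 0.83 there against -0.04, in a class where macrophage markers summed to 8313 CPM with ATRA+agonist and 1618 CPM with vehicle. Of the adipocyte markers in that class, Adipoq was at 10 and 1 UMIs, Retn at 16 and 0, Cidec at 3 and 0 and Plin1 at 1 and 4. Their part in the Fabp4 value was not tested. With both ratios inside 1.5-fold, opposite signs were also found for Tcf15 in FAP-like cells (-0.55, -0.98 to -0.13, against 0.47), Pparg in macrophage-like cells (0.56, 0.29 to 0.82, against -0.34) and Cd36 (0.22, 0.09 to 0.35, in smooth muscle or pericyte-like cells, against -0.07). Tcf15 in FAP-like cells stood at only 6.00 and 8.80 CPM (79 and 116 UMIs). Levels up to 7.71 and 20.3 CPM were met as background in B cell-like cells, so nothing is read from that ratio.

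Fabp4 also stood out in cells that no comparison used. In an unnamed cluster led by Car3 and Cfd (68 cells with ATRA+agonist and 108 with vehicle), Fabp4 was at 1399.8 CPM with ATRA+agonist and 69.95 CPM with vehicle. Adipocyte markers there summed to 61 and 0 UMIs, and their part in the Fabp4 value was not tested.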

How the results depend on the processing

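No paired analysis was possible because each group holds 1 library. Lpl was past 1.5-fold in all 18 alternatives, with log2 ratios from -0.88 to -0.59 in endothelial-like and from -0.98 to -0.88 in capillary-like cells. Rbp7 ranged more widely, from -0.93 to -0.15 in endothelial-like and from -1.22 to -0.20 in capillary-like cells. Its values nearest 0 came from the mean of log values. Of the 10 genes, 2 were lower (Rbp7 beside Lpl) with no doublet removal, 15% removed as doublets, no hemoglobin filter, under 10% mitochondrial UMIs, at least 500 genes, no maximum of genes, resolution 1.6, cells named by their own markers, thinning, median-of-ratios scaling, and both alternatives chosen after seeing the data (interferon-led cluster left out, cells under 1000 UMIs left out), and 0 with a fold of 2. The median of the 10 was -0.11 with no maximum of genes. Against 355 genes lower, there were 236 after thinning, 49 on the mean of log values (another scale), 1254 with at least 10 UMIs and 143 with a fold of 2. Against 372 genes higher, there were 182, 2, 1449 and 51 under the same settings and 232 with median-of-ratios scaling. Of the other lipid genes, 4 were lower, but 2 with at least 500 genes, 1 after thinning, 0 on log values and 1 with a fold of 2. The 3 higher became 5 with no maximum of genes, 0 on log values and 8 with at least 10 UMIs. Aqp7 in arterial-like cells was -0.19 with no maximum of genes. The cause of these changes was not tested. Signs were kept in 165 of 180 values in endothelial-like, 178 of 180 in capillary-like and 138 of 153 in arterial-like cells. These counts, and those of settings past 1.5-fold, include a fold of 2 and a minimum of 10 UMIs. Both leave the ratio of a gene unchanged, so they could not alter its sign or its place against 1.5-fold. With 15% removed as doublets and with at least 500 genes, arterial-like cells fell below 100 in 1 library, and no ratio was taken. Differences between mice are in no interval.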
